A study of Homo sapiens with 9 samples.

Results

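The levels of 10 genes that steer cells between an epithelial and a mesenchymal state were followed in A549, a long-established human lung adenocarcinoma cell line. They were chosen by name, 5 inducing transcription factors, SNAI1, SNAI2, ZEB1, ZEB2 and TWIST1, and 5 epithelial antagonists, GRHL1, GRHL2, ESRP1, ESRP2 and ELF3, and each matched 1 of the 60676 genes in the count table. The cells carried a lentiviral short hairpin RNA (shRNA): shNT, a non-targeting control, or shLITATS1-1 or shLITATS1-2, each directed at the long noncoding RNA LITATS1. All groups shared the line, the transduction and the selection with puromycin, which began after 2 days and lasted another 3 days. Each group held 3 libraries of total RNA. The series calls them biological replicates without saying whether each was transduced separately, so a p-value here reflects only how much these libraries vary.

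Epithelial-mesenchymal transition (EMT) is the programme by which cells held together by E-cadherin junctions become loose, motile and mesenchymal. SNAI1, SNAI2, ZEB1 and ZEB2 are zinc finger repressors that bind E-box sequences in the promoters of epithelial genes such as CDH1, and TWIST1 is a basic helix-loop-helix factor that promotes the same switch. GRHL factors, the splicing regulators ESRP1 and ESRP2 and the ETS factor ELF3 hold cells in the epithelial state, and the microRNAs of the miR-200 family restrain ZEB1 and ZEB2, which in turn repress the miR-200 genes. In lung cancer cells these factors are studied for their part in invasion and in responses to TGF-β.

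Of 24556848 to 24671296 fragments per library, genes received 19610514 to 19989652, and 15500 genes had enough counts to be tested. LITATS1 fell from 15.1 ± 1.51 CPM, the fragment count scaled to the size of each library by TMM (SD, n = 3), in the control to 3.33 ± 0.405 under the first hairpin and 3.02 ± 0.321 under the second. Unaligned fragments made up 3.66% to 3.86% of the shNT libraries and 5.39% to 5.57% of the others, and mitochondrial genes took 12.0% to 12.4% of gene fragments with shNT, 10.1% to 10.4% with shLITATS1-1 and 7.79% to 8.23% with shLITATS1-2. The part of these shares in the results was not tested. All 6 epithelial identity markers (EPCAM, CDH1, KRT7, KRT8, KRT18 and KRT19) were expressed. Of 8 alveolar type 2 markers, 5, among them SFTPC and SFTPB, stayed under 0.5 CPM in every group. Another, ABCA3, stood at 89.5 CPM with shNT, 106.2 with shLITATS1-1 and 91.7 with shLITATS1-2. LAMP3 and NAPSA were low, at 0.376 and 0.530 CPM with shNT.

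Levels of the 10 genes ranged from above the median of tested genes to almost nothing. Per kilobase of annotated exon, ELF3 stood highest with shNT at 7.17 ± 0.330 CPM per kilobase (SD, n = 3), above 65.1% of the 15397 tested genes with a known length. SNAI1 followed at 7.05 ± 0.270, and these 2 levels did not differ beyond their spread on this length, while per kilobase of the longest transcript ELF3 stood at 10.3 and SNAI1 at 7.05. ZEB1 came next at 4.44 CPM per kilobase, followed by TWIST1 at 1.44 ± 0.188, SNAI2 at 0.857 ± 0.237, ZEB2 at 0.402 ± 0.0179 and GRHL1 at 0.172 ± 0.0165. ESRP2 at 0.0430, ESRP1 at 0.0245 and GRHL2 at 0.0028 closed the order, and from SNAI1 downwards the libraries of neighbouring genes did not overlap. The place of ZEB2 also rests on the length used. Divided by its longest transcript of 9583 bases in place of its 25058 annotated exon bases, ZEB2 stood at 1.05 CPM per kilobase beside 1.03 for SNAI2.

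Of the 10 genes, 7 passed the filter on low counts, all 5 inducing factors and, of the antagonists, GRHL1 and ELF3. With shLITATS1-1, 3 rose against shNT (SNAI1, SNAI2 and ZEB2), 2 fell (TWIST1 and ELF3) and 2 were not called (ZEB1 and GRHL1). With shLITATS1-2, 4 rose (SNAI1, ZEB1, ZEB2 and ELF3), 2 fell (SNAI2 and GRHL1) and TWIST1 was not called. A call means an adjusted p under 0.05 by the quasi-likelihood test of edgeR, adjusted over all genes tested after Benjamini and Hochberg. Such calls were common: against shNT they took in 61% of all tested genes with shLITATS1-1 (30.5% higher and 30.5% lower) and 56.7% with shLITATS1-2 (27.8% higher and 28.9% lower). With so many genes called, a count of 5 or 6 of 7 says little about these genes, and the sizes and directions below describe the genes better than the counts do. Both comparisons use the same shNT libraries, so their values stand side by side and are not independent of each other. In the RNA of a whole culture, fewer cells with a transcript and less of it per cell cannot be told apart.

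**Figure D1:**
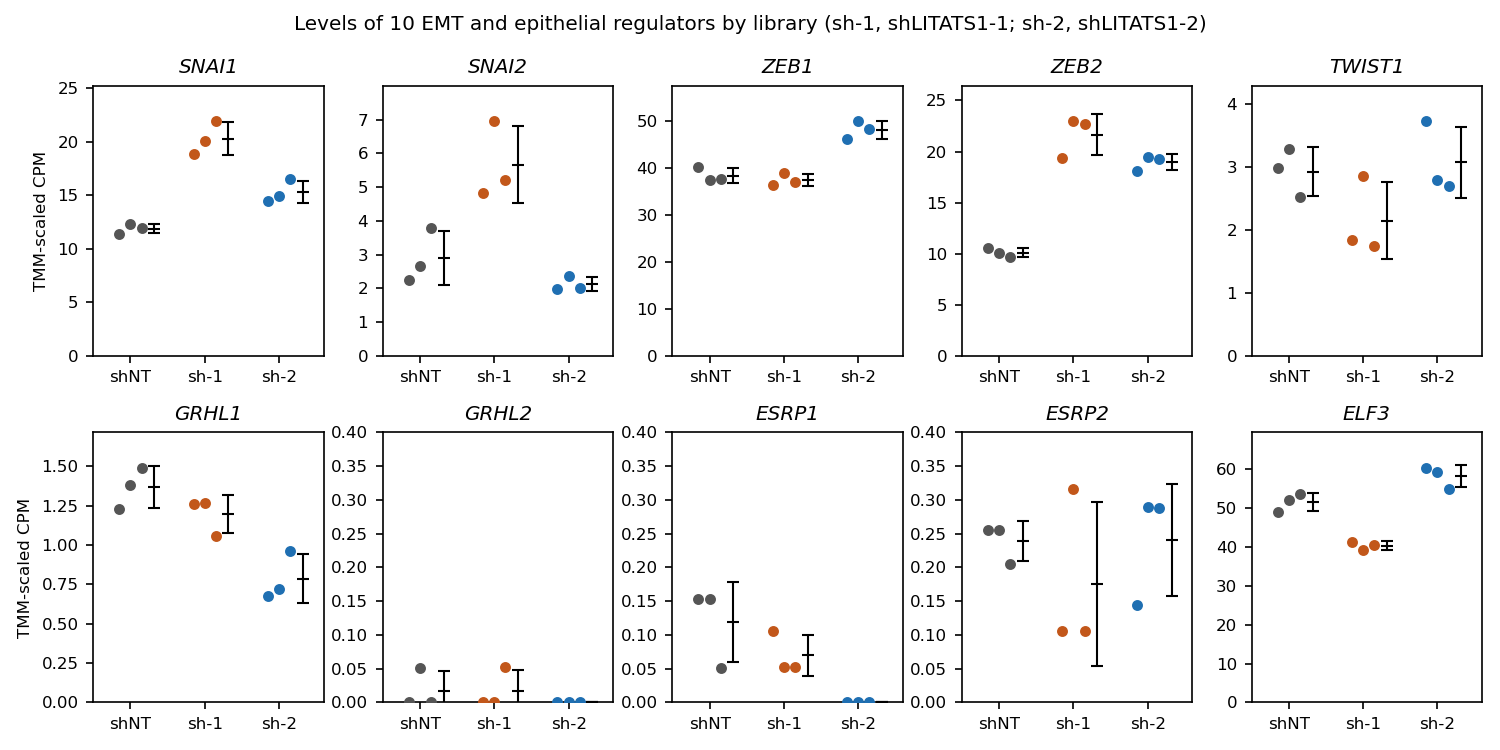
Each panel shows 1 gene, with a point for each library in TMM-scaled CPM (the vertical axis starts at 0 and differs between panels), grouped as shNT, shLITATS1-1 (sh-1) and shLITATS1-2 (sh-2), with black bars for the mean and SD of 3 libraries. SNAI1 and ZEB2 lie above shNT in all 6 hairpin libraries, ELF3 lies below shNT in one group and above it in the other, and GRHL2, ESRP1 and ESRP2 stay under 0.4 CPM throughout.

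SNAI1, the zinc finger factor known as Snail, rose with both hairpins. The gene (ENSG00000124216) lies at chr20:49982999-49988886 on the plus strand of GRCh38. It had 223, 241 and 232 fragments in the shNT libraries, 358, 381 and 416 with shLITATS1-1, and 300, 311 and 343 with shLITATS1-2. The 3 groups did not overlap, with shNT lowest and shLITATS1-1 highest. The level went from 11.9 ± 0.456 CPM to 20.3 ± 1.55 with shLITATS1-1, a log2 fold change of 0.77 (SE 0.08; edgeR, adjusted p = 7.0e-14). With shLITATS1-2 it reached 15.3 ± 1.04 CPM, a log2 fold change of 0.36 (SE 0.08; edgeR, adjusted p = 7.71e-05). SNAI1P1, its processed pseudogene, had no fragment in any library.

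SNAI2, known as Slug and a close relative of SNAI1, moved in opposite directions with the 2 hairpins. It is annotated at chr8:48917604-48921740 on the minus strand (ENSG00000019549). Its fragments numbered 44, 52 and 74 with shNT, 92, 132 and 99 with shLITATS1-1, and 41, 49 and 42 with shLITATS1-2. Every shLITATS1-1 library lay above every other library, while the shNT and shLITATS1-2 libraries overlapped. The level rose from 2.91 ± 0.802 CPM to 5.67 ± 1.13 with shLITATS1-1, 1.95-fold (log2 fold change 0.96, SE 0.16; edgeR, adjusted p = 2.03e-07). With shLITATS1-2 it fell to 2.12 ± 0.208 CPM (log2 fold change -0.45, SE 0.19; edgeR, adjusted p = 0.0346). The fall rests on single libraries: without shNT replicate 3, the log2 fold change was -0.21 (adjusted p = 0.408), and without shLITATS1-2 replicate 1 or 3 the adjusted p was 0.0899 and 0.0757. It was also lost with library-size scaling (-0.34, adjusted p = 0.116) and in DESeq2 (adjusted p = 0.127).

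ZEB1, a zinc finger and homeodomain repressor of CDH1, did not pass the test with shLITATS1-1 and rose with shLITATS1-2. ZEB1 (ENSG00000148516) spans chr10:31318495-31529814 on the plus strand. The shNT libraries had 784, 731 and 734 fragments, the shLITATS1-1 libraries 693, 739 and 703, and the shLITATS1-2 libraries 955, 1039 and 1005. The first 2 groups overlapped, and all 3 shLITATS1-2 libraries lay above them. The level was 38.4 ± 1.51 CPM with shNT and 37.5 ± 1.30 with shLITATS1-1, a log2 fold change of -0.04 with a 95% confidence interval from -0.14 to 0.07 (edgeR, adjusted p = 0.571). With shLITATS1-2 it was 25.3% higher than with shNT (log2 fold change 0.33, SE 0.05; edgeR, adjusted p = 7.02e-08).

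ZEB2, the paralogue of ZEB1 and also called SIP1, rose with both hairpins. Its log2 fold changes were the largest in size among the 7 tested genes in the fit of all libraries. But with shLITATS1-1, SNAI2 lay within the error of ZEB2 and was larger without shNT replicate 3 (1.202 against 1.07 for ZEB2). With shLITATS1-2, GRHL1 lay within the error of ZEB2 in size (-0.79, SE 0.26). GRHL1 reached -0.962 when 1 library was left out, while ZEB2 stayed between 0.879 and 0.952. ZEB2 (ENSG00000169554) spans chr2:144364364-144524583 on the minus strand. Fragments numbered 206, 196 and 188 with shNT, 368, 436 and 430 with shLITATS1-1, and 374, 405 and 402 with shLITATS1-2, so that every hairpin library had more than every shNT library and the 2 hairpin groups overlapped. ZEB2 rose 2.15-fold with shLITATS1-1, from 10.1 ± 0.449 to 21.7 ± 2.00 CPM (log2 fold change 1.10, SE 0.08; edgeR, adjusted p = 2.87e-20). It rose 1.88-fold with shLITATS1-2, to 19.0 ± 0.781 CPM (log2 fold change 0.91, SE 0.08; edgeR, adjusted p = 3.31e-16). Across 17 other settings the log2 fold change of ZEB2 stayed between 1.06 and 1.18 with shLITATS1-1 and between 0.88 and 1.02 with shLITATS1-2.

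The balance within the ZEB pair lay at a separate level in each group. Per kilobase of exon, the ratio of ZEB1 to ZEB2 was 11.03, 10.8 and 11.3 in the shNT libraries. It was 5.46, 4.91 and 4.74 with shLITATS1-1 and 7.40, 7.43 and 7.24 with shLITATS1-2, and no group overlapped another. With the longest transcript of each gene as its length, the mean ratios were 5.83, 2.66 and 3.88, so the size of the ratio depends on the length used. Another length multiplies the ratio of every library by the same factor, so the order of the groups could not change. For the SNAI pair, the ratio of SNAI1 to SNAI2 was 8.61 ± 2.04 (SD, n = 3) in the control, 7.36 ± 1.38 under shLITATS1-1 and 14.6 ± 1.83 under shLITATS1-2, where the shLITATS1-2 libraries lay above the other 6. A two-sided exact permutation test of 3 against 3 libraries cannot go below p = 0.10, which each ZEB comparison reached, and over the 12 ratio tests made this became 0.12 after adjustment.

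**Figure D2:**
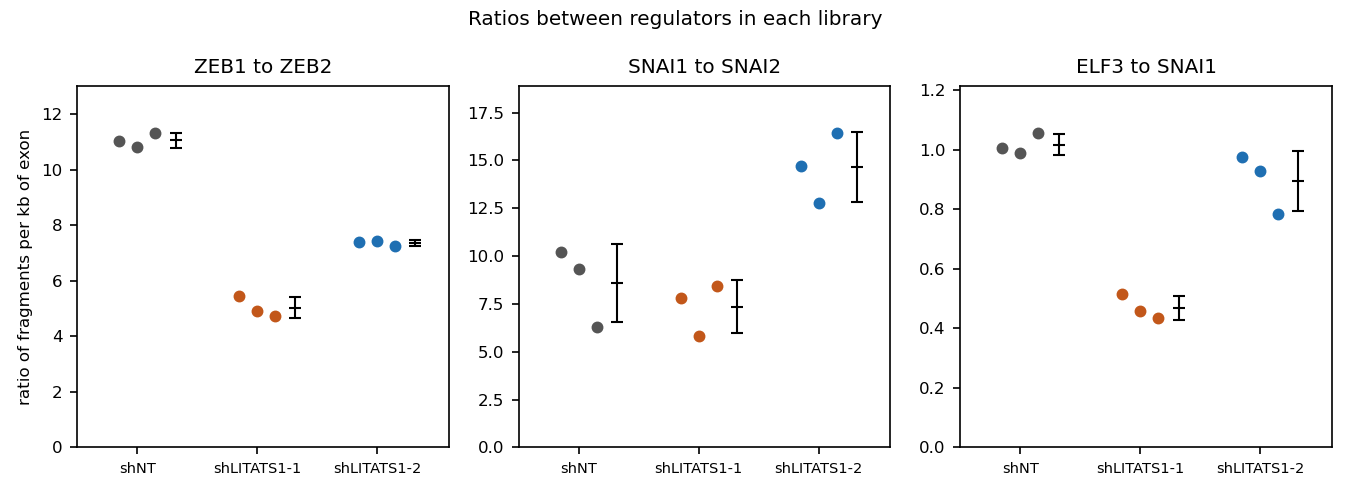
Points are single libraries and black bars the mean and SD of 3 libraries; the vertical axes give the ratio of fragments per kilobase of exon for 3 pairs of genes and start at 0. ZEB1 to ZEB2 falls from 10.8 or more with shNT to 7.43 or less in the hairpin libraries, SNAI1 to SNAI2 is highest with shLITATS1-2, and ELF3 to SNAI1 is lowest with shLITATS1-1.

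The part of the ZEB1 and ZEB2 mRNAs after the stop codon, where miR-200 microRNAs pair, was searched for seed matches, as were those of SNAI1, TWIST1, GRHL1, ESRP2 and ELF3; SNAI2, GRHL2 and ESRP1 were not searched here. The mature miR-200 sequences are shown because their seeds (bases 2 to 8, in capitals) fall into 2 groups that differ by 1 base. The first seed, AAUACUG, is shared by 3 members, given here from RefSeq on GRCh38.p14.
hsa-miR-200b-3p: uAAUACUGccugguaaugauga
hsa-miR-200c-3p: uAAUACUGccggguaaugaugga
hsa-miR-429: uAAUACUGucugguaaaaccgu
The second seed, AACACUG, is shared by the other two.
hsa-miR-200a-3p: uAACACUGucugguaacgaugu
hsa-miR-141-3p: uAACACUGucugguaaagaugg

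In GENCODE 29 transcripts, the 2549 bases after the stop codon of ZEB1 held 6 matches to the first seed (CAGTATT in DNA letters) and 3 to the second (CAGTGTT). The 5370 bases of ZEB2 held 5 and 4. At least 1 match to the first seed was present in 14.1% of 19120 protein-coding genes and to the second in 15.8%. Of these genes, 0.0314% held 5 or more of the first, but their median length after the stop was only 801 bases. Per kilobase, the first seed had 0.122 matches over all genes, 2.35 in ZEB1 and 0.931 in ZEB2. The second had 0.138, 1.18 and 0.745. SNAI1, TWIST1, GRHL1, ESRP2 and ELF3 held no match to either seed. The match to the seed of another microRNA, miR-205 (ATGAAGG), occurred 1 time in ZEB1 and 1 time in ELF3. It was absent from ZEB2 and the other genes searched, and 9.79% of the 19120 genes held at least 1. A match is a run of letters, not a measured site. The 2 matches nearest to the stop codon are shown for the first seed and the nearest one for the second, with the match in capitals, to show the bases around them.
ZEB1, 369 bases after the stop: ttgttttatcttatCAGTATTa
ZEB1, 463 bases after the stop: tgctaaatccgcttCAGTATTt
ZEB1, 782 bases after the stop: aaaatcatcagaatCAGTGTTt
ZEB2, 392 bases after the stop: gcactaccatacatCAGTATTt
ZEB2, 455 bases after the stop: gcactacaatgcatCAGTATTa
ZEB2, 208 bases after the stop: gcaaaaattttgtaCAGTGTTa

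The mature microRNAs were not measured here, and their host transcripts were almost without fragments. MIR200CHG, which carries miR-200c and miR-141 within chr12:6963742-6964176, had 0 fragments in all 9 libraries, and so did MIR205HG, the host of the ZEB-targeting miR-205. A count of 0 over the 3 libraries of a group allows up to 3 fragments, or 0.0513 CPM with shNT, 0.0527 with shLITATS1-1 and 0.0482 with shLITATS1-2, for counting error only. The miR-200b, miR-200a and miR-429 genes had 9 fragments in all, none of them with shNT. MIR34AHG, the host of miR-34a, which targets SNAI1, stood apart from these at 7.64 ± 0.212 CPM with shNT. It rose with shLITATS1-1 (log2 fold change 0.29, SE 0.10; edgeR, adjusted p = 0.0119) and had a log2 fold change of 0.18 with shLITATS1-2 (edgeR, adjusted p = 0.134).

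TWIST1 (ENSG00000122691, chr7:19020991-19117672, minus strand) was the weakest case among the inducing factors. It had 58, 64 and 49 fragments with shNT, 35, 54 and 33 with shLITATS1-1, and 77, 58 and 56 with shLITATS1-2, and all 3 groups overlapped. With shLITATS1-1 it fell from 2.92 to 2.14 ± 0.612 CPM (log2 fold change -0.45, SE 0.19; edgeR, adjusted p = 0.0357). The call was lost without shNT replicate 1 or 2 (adjusted p = 0.0724 and 0.145), without shLITATS1-1 replicate 1 or 3 (0.149 and 0.182) and in DESeq2 (0.161). With shLITATS1-2 the log2 fold change was 0.07, with a 95% confidence interval from -0.27 to 0.41 (edgeR, adjusted p = 0.754).

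ELF3, an ETS factor of epithelial tissues, was the only antagonist with a high level, and its direction differed between the hairpins. ELF3 (ENSG00000163435) lies at chr1:202007945-202017188 on the plus strand. It had 956, 1017 and 1044 fragments with shNT, 785, 743 and 769 with shLITATS1-1, and 1249, 1229 and 1144 with shLITATS1-2, with no overlap between groups. The level fell from 51.6 ± 2.37 to 40.3 ± 1.08 CPM with shLITATS1-1 (log2 fold change -0.35, SE 0.05; edgeR, adjusted p = 5.34e-09). It rose to 58.2 ± 2.81 CPM with shLITATS1-2, by 12.8% (log2 fold change 0.17, SE 0.05; edgeR, adjusted p = 0.00113). Per kilobase of exon, ELF3 was level with SNAI1 with shNT (ratio 1.02 ± 0.0343) and stood at less of it with shLITATS1-1 (0.468 ± 0.0415) and with shLITATS1-2 (0.895 ± 0.101). With the longest transcripts as lengths the ratios were 1.46, 0.674 and 1.29. Which of the 2 genes stands higher with shNT and with shLITATS1-2 therefore depends on the length used. The order of the groups could not change, as the length scales all libraries alike.

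GRHL1, a grainyhead factor of epithelial barriers, was low in every library. GRHL1 (ENSG00000134317, chr2:9951693-10002277, plus strand) had 24, 27 and 29 fragments with shNT, 24, 24 and 20 with shLITATS1-1, and 14, 15 and 20 with shLITATS1-2. The shLITATS1-2 libraries lay below the shNT libraries, and the shLITATS1-1 libraries overlapped shNT. From 1.37 ± 0.131 CPM it fell by 42.2% to 0.787 ± 0.153 with shLITATS1-2 (log2 fold change -0.79, SE 0.26; edgeR, adjusted p = 0.00823). DESeq2 gave an adjusted p of 0.0703 for this fall. With shLITATS1-1 the log2 fold change was -0.19, with a 95% confidence interval from -0.69 to 0.30 (edgeR, adjusted p = 0.508).

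GRHL2, ESRP1 and ESRP2 did not pass the filter in these cells. GRHL2 (ENSG00000083307, chr8:101492432-101669726), which activates CDH1 and opposes ZEB1, had 1 fragment in shNT replicate 2, 1 in shLITATS1-1 replicate 3 and none in the other 7 libraries. ESRP1 (ENSG00000104413, chr8:94641074-94707466), which directs epithelial splicing, had 3, 3 and 1 fragments with shNT, 2, 1 and 1 with shLITATS1-1 and 0 in each shLITATS1-2 library. The 95% exact Poisson interval of the 7 shNT fragments runs from 2.81 to 14.4 and that of the 0 shLITATS1-2 fragments ends at 3.69, so the intervals overlap. In a fit without the filter ESRP1 was called lower with shLITATS1-2 (edgeR, adjusted p = 0.0286), while DESeq2 gave an unadjusted p of 0.0285 and no adjusted one. ESRP2 (ENSG00000103067, chr16:68229111-68238102) had 14 fragments with shNT (interval 7.65 to 23.5), 10 with shLITATS1-1 (4.80 to 18.4) and 15 with shLITATS1-2, and any difference was not detectable at this depth. The 149 exonic bases that ESRP2 shares with NFATC3 on the other strand leave even these few fragments uncertain.

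**Figure D3:**
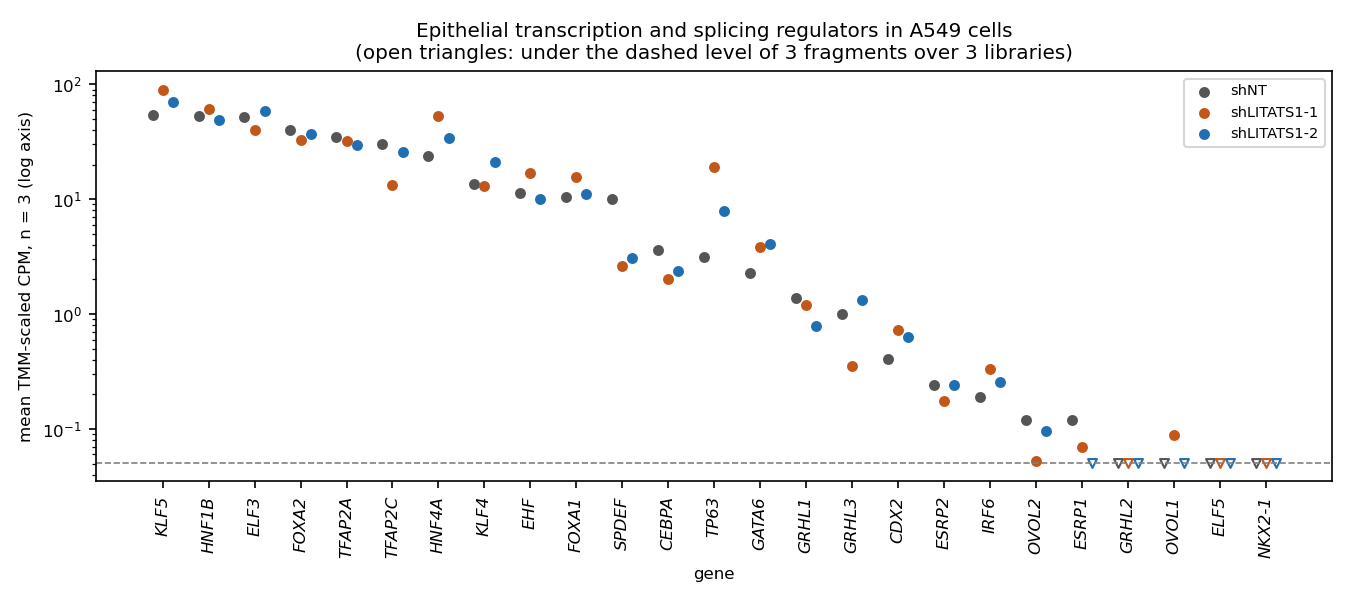
The 5 antagonists and 20 other epithelial transcription factors are ordered along the horizontal axis by their shNT level; points give the mean TMM-scaled CPM of 3 libraries per group on a log axis, and open triangles mark means under the dashed level of 3 fragments over 3 libraries. ELF3 stands among the highest, GRHL1 near 1 CPM, and ESRP2, ESRP1 and GRHL2 among the lowest together with OVOL1, OVOL2, ELF5 and NKX2-1.

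Besides ESRP2, transcripts on the other strand share exonic bases with ZEB1, ZEB2 and ELF3, among others, and the strand setting of the counting is not given in the sources used here. ZEB1-AS1 shares 366 exonic bases with ZEB1 and had 201 fragments with shNT against 2249 for ZEB1. ZEB1-AS1 fell with shLITATS1-1 (log2 fold change -0.50, SE 0.17; edgeR, adjusted p = 0.00937), where ZEB1 had -0.04, and had a log2 fold change of 0.22 with shLITATS1-2 (edgeR, adjusted p = 0.222). ELF3-AS1 shares 664 exonic bases with ELF3 and went from 1.68 CPM with shNT to 1.19 with shLITATS1-1 and 1.89 with shLITATS1-2, the same order of groups as ELF3, with neither difference from shNT called (edgeR, adjusted p = 0.0764 and 0.502). ZEB2-AS1, which shares 1299 exonic bases with ZEB2, had 2 fragments in all 9 libraries.

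Promoter windows from 250 bases before to 50 after the start, from RefSeq (GRCh38.p14), were used for 4 of the 10 genes. There was 1 each for ELF3, GRHL1 and ZEB2 and 7 for ZEB1. SNAI2, GRHL2 and ESRP1 were not searched here, and no window was found for SNAI1, TWIST1 and ESRP2. The windows were searched on both strands for CAGGTG, the E-box that SNAI and ZEB factors bind, whose reverse complement is CACCTG. ELF3 held 1 match, 120 bases before the start, and 2 of the 7 ZEB1 windows held 1 and 3. The windows of GRHL1 and ZEB2 and the other 5 of ZEB1 held none, which says only that these letters are not in them. Of 35116 promoter windows of the same length, 20.6% held at least 1 match and 3.49% held 2 or more. The grainyhead motif AACCGGTT was in 0.134% of all windows and in none of these. With shLITATS1-2 the log2 fold changes were 0.174 for ELF3, 0.325 for ZEB1, 0.911 for ZEB2 and -0.792 for GRHL1. With shLITATS1-1 they were -0.355, -0.036, 1.103 and -0.195. A link between matches and levels was not tested. The ELF3 window and the ZEB1 window with 3 matches are printed to show where the matches lie, in capitals.
ELF3, chr1:202010337-202010636, plus strand: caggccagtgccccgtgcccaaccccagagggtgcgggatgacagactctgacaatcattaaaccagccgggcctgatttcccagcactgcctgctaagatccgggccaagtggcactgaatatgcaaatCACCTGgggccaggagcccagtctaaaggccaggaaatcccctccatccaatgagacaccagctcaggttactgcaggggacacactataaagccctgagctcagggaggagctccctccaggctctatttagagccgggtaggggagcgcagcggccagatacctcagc
ZEB1, chr10:31318966-31319265, plus strand: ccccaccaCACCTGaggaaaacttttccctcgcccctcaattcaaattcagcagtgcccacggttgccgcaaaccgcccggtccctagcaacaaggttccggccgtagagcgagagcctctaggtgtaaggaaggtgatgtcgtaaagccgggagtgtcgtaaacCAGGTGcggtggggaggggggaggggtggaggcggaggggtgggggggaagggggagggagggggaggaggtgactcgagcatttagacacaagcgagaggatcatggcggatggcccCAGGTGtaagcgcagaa

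The hairpins were also compared with each other, which tests whether the genes responded differently to them. Of the 7 tested genes, 3 were higher with shLITATS1-2 than with shLITATS1-1 (ZEB1, TWIST1 and ELF3), 3 were lower (SNAI1, SNAI2 and ZEB2) and GRHL1 was not called; of all genes, 60.9% were called, 30.7% higher and 30.2% lower. SNAI2 differed most, with a log2 fold change of -1.42 (SE 0.16; edgeR, adjusted p = 1.93e-11), and ELF3 differed by 0.53 (SE 0.05; edgeR, adjusted p = 2.48e-15). SNAI1 was 24.4% lower (log2 fold change -0.40, SE 0.07; edgeR, adjusted p = 1.99e-06) and ZEB1 28.5% higher (0.36, SE 0.05; edgeR, adjusted p = 4.80e-09), each without overlap of the libraries. ZEB2 was lower by a log2 fold change of -0.19 (SE 0.07; edgeR, adjusted p = 0.0144) and TWIST1 higher by 0.52 (SE 0.19; edgeR, adjusted p = 0.0130), and in both the libraries overlapped. The ZEB2 difference was lost without shLITATS1-1 replicate 2 or 3 (edgeR, adjusted p = 0.101 and 0.0789) or shLITATS1-2 replicate 1 (0.0742), and with library-size scaling its log2 fold change was -0.06 (adjusted p = 0.454). The TWIST1 difference was lost without shLITATS1-1 replicate 1 or 3 (edgeR, adjusted p = 0.0752 and 0.0953) or shLITATS1-2 replicate 1 (0.128). For GRHL1 the log2 fold change was -0.60, with a 95% confidence interval from -1.14 to -0.05 (edgeR, adjusted p = 0.0536), and it was called without shLITATS1-1 replicate 3 (0.0496) or shLITATS1-2 replicate 3 (0.0368).

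**Figure D4:**
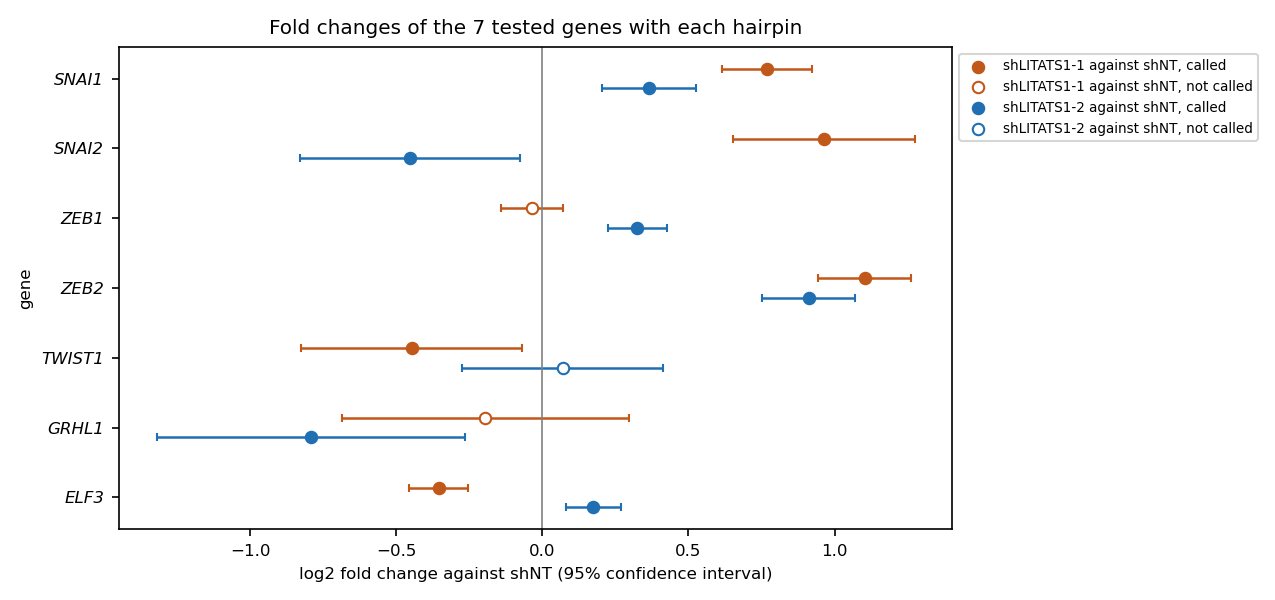
Log2 fold changes against shNT on the horizontal axis, with 95% confidence intervals from edgeR, are shown for the 7 tested genes with shLITATS1-1 (orange) and shLITATS1-2 (blue); filled points passed the test and open points did not. ZEB2 lies farthest right with both hairpins, and SNAI2 and ELF3 have filled points on both sides of 0.

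The genes whose levels ran most like each of the 7 were found by Pearson's correlation of log2 CPM over the 9 libraries, among 12126 tested genes. With 3 groups of 3, such an r mostly measures the order and spacing of the groups, and it is given as a description. For SNAI1 these were RIPK4 (r = 0.989), a kinase of epithelial differentiation, and MBOAT2 (0.987), an acyltransferase. For SNAI2 they were NPEPL1 (0.987) and KATNAL2 (0.979), and for ZEB1 ATP8B2 and IBTK (both 0.994). ZEB2 ran with KLF6 and FCHO2 (both 0.996), the first a zinc finger factor that went from 93.2 CPM with shNT to 126.8 and 121.1. ELF3 ran with JPT1 (0.996) and STAT6 (0.995), and GRHL1 with NUDT9 (0.971) and LIN7C (0.967). TWIST1 had the loosest pair, PARD6A (0.942), a polarity gene, and IRX2 (0.896).

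Around these regulators, the usual readouts of EMT moved unevenly. E-cadherin, CDH1, was 35.9 ± 1.00 CPM with shNT. Its log2 fold change was -0.09 (SE 0.06, edgeR, adjusted p = 0.157) with shLITATS1-1, not called though its libraries did not overlap those of shNT. CDH1 fell with shLITATS1-2 (-0.46, SE 0.06, edgeR, adjusted p = 8.04e-11). The part of the regulators in the CDH1 levels was not tested. N-cadherin, CDH2, rose by a log2 fold change of 1.19 with shLITATS1-1 and 0.46 with shLITATS1-2, fibronectin, FN1, by 1.40 and 0.23, and vimentin, VIM, by 0.26 and 0.34. Over all genes tested, 30.5% rose and 30.5% fell with shLITATS1-1, and 27.8% rose and 28.9% fell with shLITATS1-2. Of 24 mesenchymal genes, 22 were tested. Among these, 18 rose and 2 fell with shLITATS1-1 (median log2 fold change 1.38, against -0.01 over all genes). With shLITATS1-2, 20 of the mesenchymal genes rose and 2 fell (median 0.76, against 0.00). Leaving out genes whose mean log2 CPM was under 1, TAGLN (3.42) and NT5E (1.98) led with shLITATS1-1 and TNC (3.09) and ITGA5 (2.099) with shLITATS1-2, while AXL fell with both (-0.47 and -0.19) and SPARC fell with shLITATS1-2 (-1.85). Several of these are known TGF-β targets, and the lists were drawn up with earlier results of these libraries known, so their direction is not independent evidence.

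Epithelial genes that SNAI and ZEB factors are known to repress did not fall as a group. For comparison, 30.5% of all genes tested rose and 30.5% fell with shLITATS1-1. With shLITATS1-2, 27.8% of all genes tested rose and 28.9% fell. Of 32, 27 were tested; with shLITATS1-1, 12 rose, 5 fell and 10 were not called (median 0.20), and with shLITATS1-2, 10 rose, 8 fell and 9 were not called (median 0.08). The tight junction gene CLDN4 rose most with both hairpins (2.14 and 2.22), and its relative CLDN3 fell with both (-0.68 and -0.62). The keratin genes KRT8 and KRT18 rose with shLITATS1-1 (0.79 and 0.92) and fell with shLITATS1-2 (-0.14 and -0.26). CLDN7, RAB25, ST14, PRSS8 and MARVELD3 stayed under 0.5 CPM in every group, as did GRHL2, ESRP1 and ESRP2.

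Against all genes tested, where 30.5% rose and 30.5% fell with shLITATS1-1 and 27.8% and 28.9% with shLITATS1-2, 2 further lists of factors were set. Among 20 other epithelial transcription factors, 15 were tested. Of these, 7 rose and 5 fell with shLITATS1-1, and 5 rose and 5 fell with shLITATS1-2. TP63, the factor of basal epithelial cells, led with both (2.596 and 1.32), and SPDEF, a factor of secretory cells, was lowest with both (-1.94 and -1.70). GRHL3, another grainyhead gene, fell with shLITATS1-1 from 1.01 CPM (log2 fold change -1.51; edgeR, adjusted p = 0.000152), and its log2 fold change with shLITATS1-2 was 0.40 (edgeR, adjusted p = 0.175). Among 24 other EMT-linked factors, 20 were tested; 6 rose and 8 fell with shLITATS1-1, and 8 rose and 4 fell with shLITATS1-2. FOXQ1 rose with shLITATS1-2 (1.355), FOSL1 fell with shLITATS1-1 (-0.94) and SOX4 rose with both (1.06 and 0.89). ETS1 fell with shLITATS1-1 (-0.60) and rose with shLITATS1-2 (0.73). TWIST2, at 11.8 CPM with shNT, fell with shLITATS1-1 (-0.73; edgeR, adjusted p = 3.29e-09) and had a log2 fold change of 0.12 with shLITATS1-2 (edgeR, adjusted p = 0.246), beside the -0.45 and 0.07 of TWIST1.

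**Figure D5:**
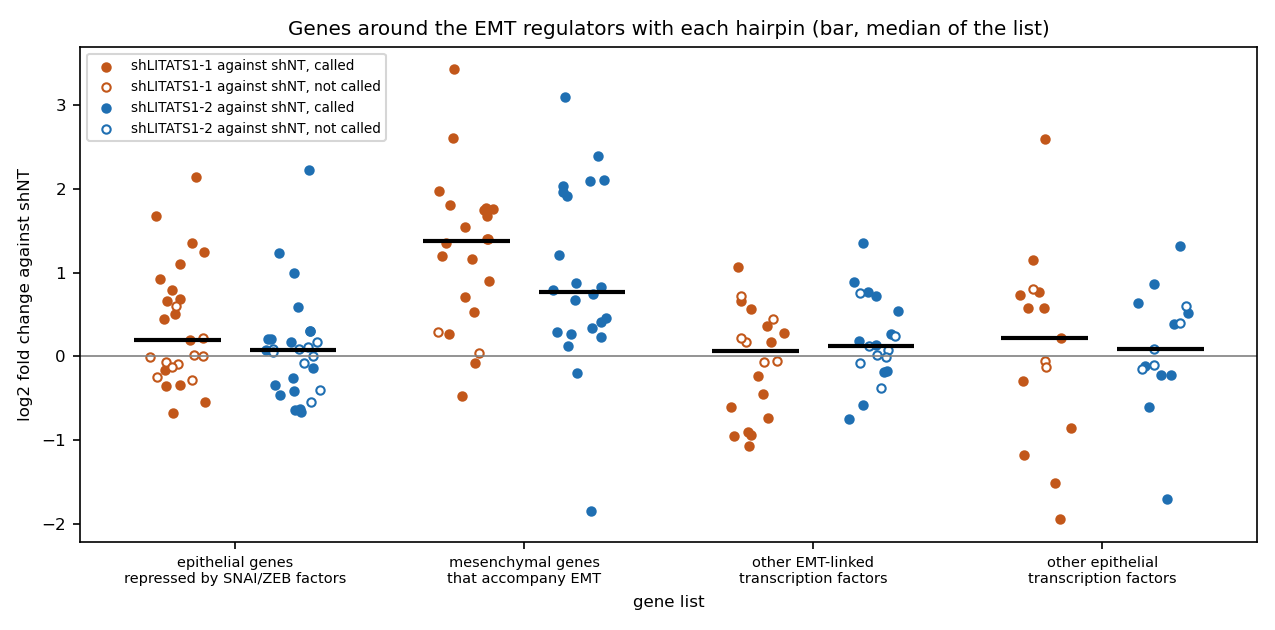
Each point is a tested gene, with its log2 fold change against shNT on the vertical axis, in 4 gene lists along the horizontal axis; orange is shLITATS1-1, blue is shLITATS1-2, filled points passed the test, and black bars are list medians. The mesenchymal genes have medians of 1.38 and 0.76, while the other lists have medians between 0.06 and 0.22.

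Partners of these regulators were well expressed. The counts below stand beside those of all genes tested. Of these, 30.5% rose and 30.5% fell with shLITATS1-1, and 27.8% rose and 28.9% fell with shLITATS1-2. All 23 corepressors and chromatin partners of the SNAI and ZEB factors were tested; 3 rose and 12 fell with shLITATS1-1 (median -0.17), and 6 rose and 10 fell with shLITATS1-2 (median -0.03). LIMD1, a LIM protein that binds SNAI factors, fell with both (-0.94 and -0.28), as did EZH2 (-0.58 and -0.38), the methyltransferase of Polycomb. Of 30 enzymes that govern the stability of the factors, 9 rose and 9 fell with shLITATS1-1, and 15 rose and 6 fell with shLITATS1-2; among ubiquitin ligase subunits for SNAI1, FBXL14 fell with both (-0.75 and -0.46), while BTRC (0.13 and 0.20) and FBXL5 (0.17 and 0.10) rose with both. Of 16 genes of the TGF-β route to these factors, 11 rose and 4 fell with shLITATS1-1, and 10 rose and 3 fell with shLITATS1-2. The receptor gene TGFBR2 fell with shLITATS1-1 (-0.53) and rose with shLITATS1-2 (1.21), while TGFBR1 (1.02 and 0.86) and PMEPA1 (1.96 and 0.81), a feedback gene of the route, rose with both.

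Calls over all genes tested took in 30.5% higher and 30.5% lower with shLITATS1-1, and 27.8% higher and 28.9% lower with shLITATS1-2. With ESRP1 and ESRP2 near 0, the other splicing regulators of the epithelial and mesenchymal states were examined beside these shares. Of 20, 19 were tested; 4 rose and 10 fell with shLITATS1-1 (median -0.10), and 4 rose and 12 fell with shLITATS1-2 (median -0.22). RBFOX2 rose with both (0.57 and 0.53) and so did RBM47 (0.24 and 0.23). QKI fell with both (-0.51 and -1.24), and so did PTBP3 (-0.42 and -0.98). Of 24 genes with exons known to be controlled by ESRP proteins, 23 were tested; 14 rose and 4 fell with shLITATS1-1, and 9 rose and 6 fell with shLITATS1-2. CD44 rose with shLITATS1-1 (0.63) and had a log2 fold change of 0.04 with shLITATS1-2 (edgeR, adjusted p = 0.203). FGFR2 stayed under 0.6 CPM. Gene counts hold no information on which exons were included.

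Markers of fibroblasts, endothelium and immune cells were low, and some airway markers were not. Fibroblast markers, which share genes with the mesenchymal programme, summed to 2.97 to 3.75 CPM over 9 genes with shNT, 6.11 to 6.89 with shLITATS1-1 and 2.61 to 3.03 with shLITATS1-2, and POSTN had no fragment and DCN and COL1A2 under 0.1 CPM in each group. The rise with shLITATS1-1 came mainly from LUM (0.461 to 3.60 CPM). Endothelial markers summed to at most 1.27 CPM in any library. Immune markers summed to 4.94 to 10.1 CPM, from ITGAM and CD14, with CD3E at 0 and PTPRC, CD68 and LYZ under 0.1 CPM. Airway epithelial markers summed to 55.7 to 57.3 CPM over 7 genes with shNT, 72.5 to 77.9 with shLITATS1-1 and 97.0 to 115.6 with shLITATS1-2. Nearly all of it came from the mucin genes MUC5B (34.9, 43.2 and 68.7 CPM) and MUC5AC (18.4, 12.8 and 26.6 CPM) and from TP63, while SCGB1A1 and SCGB3A1 were at 0; the part of these markers in the results was not tested. The summed fibroblast level moved in the same order as SNAI2 and its part in that result was not tested.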

How the data were processed

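RNA of 9 A549 libraries in 3 groups of 3 was sequenced on the DNBSEQ platform, per the labels' protocols. The authors deposited 1 table of unnormalized fragment counts by gene. Per the submitters' processing notes, the tools include cutadapt 2.10, STAR 2.7.5a and HTSeq 0.12.4, and the build is GRCh38; strand setting and annotation release were not given in the sources used here. HTSeq's counter lines (10.2% to 10.9% of fragments ambiguous, for example) were left out. The filter was filterByExpr with a minimum count of 10 (15500 genes). All 9 libraries entered 1 edgeR 4.0.16 quasi-likelihood fit (TMM, robust, 6 residual degrees of freedom), with two-sided tests, Benjamini-Hochberg adjustment and 0.05 as the threshold; the common biological coefficient of variation was 2.71%. Mean TMM factors were 0.978 (shNT), 0.966 (shLITATS1-1) and 1.06 (shLITATS1-2). Levels are TMM-scaled CPM; lengths, coordinates and transcripts came from GENCODE 29 (GRCh38), microRNAs and promoters from RefSeq (GRCh38.p14), and symbols for 42009 gene IDs from a table of gene names.

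Replicates of a group differed by more than sampling noise in all 9 pairs (chi-square per degree of freedom 1.47 to 2.72). The genes and lists were chosen with earlier results of these data known. Named genes are LITATS1, the 10 regulators, the 2 genes most correlated with each tested one, the 2 highest and 2 lowest called genes of each list whose mean log2 CPM reached 1, the microRNA host and antisense genes, CDH1, CDH2, VIM and FN1, and not every gene the rule names is printed; TWIST2, GRHL3, ELF3-AS1, EZH2, RBM47, BTRC, FBXL5, CD44, FGFR2, KRT8 and KRT18, genes named as low and markers of other cell types were singled out after their values were seen. Alternatives were DESeq2 1.42.0, its size factors in edgeR, library-size scaling, no filter, a filter of 50, the replicate number as a block, only the 6 libraries compared, a threshold of 0.01 and the omission of each library. The fit was tested on simulated data. Software was R 4.3.3 and Python 3.11.15 with pandas 2.3.3, scipy 1.17.1 and numpy 2.4.6.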

Additional observations from a re-analysis of the deposited data

Results flagged for a closer look

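In all, 6 of the 7 tested genes differed between the hairpins in the direct comparison of shLITATS1-2 with shLITATS1-1, tested with edgeR (quasi-likelihood) and adjusted after Benjamini and Hochberg. The log2 fold changes were -0.40 for SNAI1, -1.42 for SNAI2, 0.36 for ZEB1, -0.19 for ZEB2, 0.52 for TWIST1 and 0.53 for ELF3. The adjusted p over 17 other settings ran from 0.00159 to 0.454 for ZEB2 and from 0.00121 to 0.128 for TWIST1, and stayed under 0.05 for SNAI1, SNAI2, ZEB1 and ELF3. As 60.9% of all tested genes differed between the hairpins, these differences are not particular to the regulators.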

How the results depend on the processing

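No fold change of a tested gene past the threshold changed sign in any setting. Over the alternatives, 327 results for single genes kept their side of the threshold, 25 lost it and 2 gained it. These include the threshold of 0.01, which leaves the fold change as it was. They also include the omission of libraries from the group not compared, which barely moves it. Part of the 327 could therefore hardly have changed. With shLITATS1-1, the 2 genes called lower became 1 under DESeq2, without the filter and at a threshold of 0.01, since TWIST1 was lost, and 1 to 2 when 1 library was left out. With shLITATS1-2, the 2 genes called lower became 0 under DESeq2, 1 with library-size scaling, 1 with a filter of 50 counts (which leaves GRHL1 untested) and 1 at a threshold of 0.01, and 1 to 2 when 1 library was left out. Library-size scaling moved the median log2 fold change of all genes to 0.11 with shLITATS1-2 against shNT and 0.15 against shLITATS1-1. It split the calls into 6058 higher and 2967 lower in place of 4302 and 4485, and into 6912 and 3293 in place of 4755 and 4684 between the hairpins. Libraries with the same replicate number did not deviate together (correlations from -0.19 to 0.08 over 12329 genes), so the numbers were not taken to pair them; with the replicate number as a block, 4643 genes were called higher with shLITATS1-1, 4235 with shLITATS1-2 and 4660 between the hairpins, and no call among the 7 genes changed. Depth limits GRHL1, GRHL2, ESRP1 and ESRP2, with at most 29 fragments in a library.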
